A study of Mus musculus with 60 samples.

Results

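A set of 7 regulators of G-protein and calcium signalling was followed across regulatory T (Treg) cells and whole fat of the mouse. They are the regulator of G-protein signalling (RGS) genes Rgs1, Rgs2, Rgs3, Rgs10, Rgs14 and Rgs16 and the small GTPase gene Gem, 7 of the 55011 genes in the count table. They were picked by name, with measured values of these libraries already known. Their difference between fat and spleen Treg cells is therefore given as a description, and no p-value is printed for it. The same choice may bear on the other comparisons and their p-values. Counts of these genes that pass are therefore not read as an excess over the share of all genes. RGS proteins speed the hydrolysis of GTP by the alpha subunits of heterotrimeric G proteins and so shorten the signal from a receptor. In lymphocytes they set how strongly and how long chemokine and other receptors of the Gi and Gq classes act. In brown fat, noradrenaline acts through beta-adrenergic receptors, Gs and cyclic AMP, and this signal switches on heat production. Gem is not an RGS protein: it belongs to the RGK GTPases, which bind the beta subunit of voltage-gated calcium channels and lower channel activity, and it was first described as a gene induced in T cells by mitogens.

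All mice were 8-week-old males. Treg cells were sorted as live CD45+Tcrb+CD4+Thy1.1+ cells from untreated B6.Foxp3.Thy1.1 reporter mice, giving 2 libraries for brown fat (BAT), 3 for subcutaneous fat (SAT) and 3 for spleen. The other 52 libraries held whole tissue, 38 of BAT and 14 of SAT. In B6.Foxp3.DTR mice the DTR+ genotype carries the diphtheria toxin receptor in Foxp3-expressing cells, which makes Treg cells sensitive to diphtheria toxin (DT), whereas the DTR- genotype lacks this receptor. Both genotypes received DT in the D4 set (4 libraries for each genotype and tissue) and in the D3 set (3 each), and what D3 and D4 stand for is not stated in the labels. The titles of the D3 libraries also name PBS. In BAT, there were 3 libraries each of DTR+ and of DTR- mice treated with DT and CL, and 3 of DTR- mice treated with DT and PBS. CL, an abbreviation the labels do not spell out, is taken to be CL-316243, which activates the beta-3 type of adrenergic receptor. In another experiment 2 groups of 3 libraries held BAT of wild-type C57BL/6J mice given Anti-CD25 (PC61) or an isotype control antibody, and 2 more groups of 3 held BAT of DTR+ mice given DT and either an Anti-IFNy antibody or isotype. The last 3 BAT libraries came from B6.Foxp3.DTR mice kept at 4 degrees and given PBS, which the titles call WT and the genotype labels call DTR-. Nothing in the labels ties a replicate to an animal of its own, so every p-value is set by the scatter of these samples, part of which may be technical. Libraries of compared groups are also said to overlap or not. With 2 to 4 libraries a group, separation can often arise by chance, and its share over all genes was not counted.

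Library totals ran from 3007241 to 9673342 counts. The sorted libraries held Foxp3, the defining Treg factor, at 364 to 444 CPM (counts per 1000000 of the library total). No whole-BAT library held more than 7 Foxp3 counts, so loss of Treg cells in BAT could not be read from that gene. In SAT, the D4 DTR- library of replicate 3 stood apart, with 29 Foxp3 counts and 220 CPM over 8 T cell markers, and the D4 DTR+ library of replicate 3 was high in muscle genes. For DTR+ over DTR- in D4 SAT the count of genes passing is therefore also given without both. For the difference between the BAT and SAT effects the values are given without both. D4 BAT over SAT is given with each library left out. In whole tissue a lower level can mean fewer cells of a type or less RNA per cell, and these cannot be told apart.

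On mm10, Rgs2 (chromosome 1, 143999338 to 144004161, minus strand) and Rgs1 (chromosome 1, 144242296 to 144249242, minus strand) lie near each other, and Rgs16 (153740349 to 153745468, plus strand) is on the same chromosome. Of the 21 RGS genes listed, 11 are on chromosome 1. Gem (11704457 to 11714752) and Rgs3 (62559847 to 62704001) are on the plus strand of chromosome 4, Rgs10 (128373621 to 128418758) is on the minus strand of chromosome 7 and Rgs14 (55369732 to 55384687) is on the plus strand of chromosome 13. All 7 are protein-coding genes in GENCODE M21. Exons of Rgs16 overlap those of the antisense gene Gm28513 by 236 bases, and that gene had 9 counts over all 60 libraries.

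Promoter sequence from RefSeq (GRCm38.p6) was available for Rgs2, Rgs3, Rgs10 and Rgs16. The 250 bases before the start are printed for the pair of RGS genes with the largest fat-to-spleen difference in Treg cells, one of which also fell after CL in BAT. Capitals mark TGACG, the half-site of the cAMP response element, on either strand. The search also covered the full element TGACGTCA, which contains that half-site, the AP-1 element TGANTCA and TATAAA, all on both strands.
Rgs2 chr1:144004150-144004399 minus strand: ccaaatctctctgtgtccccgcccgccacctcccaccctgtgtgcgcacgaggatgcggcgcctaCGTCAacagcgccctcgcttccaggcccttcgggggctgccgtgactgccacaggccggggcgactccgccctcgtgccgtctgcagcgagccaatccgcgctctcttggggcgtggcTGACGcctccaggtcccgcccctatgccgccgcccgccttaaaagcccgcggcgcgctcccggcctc
Rgs16 chr1:153740103-153740352 plus strand: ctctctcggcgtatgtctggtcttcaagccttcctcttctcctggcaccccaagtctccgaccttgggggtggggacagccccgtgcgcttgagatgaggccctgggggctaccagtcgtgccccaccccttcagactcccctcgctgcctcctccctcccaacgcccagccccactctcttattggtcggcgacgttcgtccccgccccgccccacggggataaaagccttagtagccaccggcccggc
The Rgs2 window held the half-site at positions -185 and -67 from the start, and the Rgs16 window held none of the 4 motifs. TGACG occurred in 17.8% of 32851 promoter windows of that length, TGACGTCA in 1.55%, TGANTCA in 6.75% and TATAAA in 12.4%. The Rgs10 window held none of them, and each of the 2 Rgs3 windows held TATAAA. These matches describe letters, not binding.

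In sorted Treg cells, Rgs2, Gem and Rgs16 stood far higher in fat than in spleen, Rgs1 moderately so, Rgs14 was level, Rgs10 was lower in fat, and Rgs3 lay slightly lower. Rgs2, which acts mainly on Gq, had 286 and 189 CPM in BAT Treg cells and 121, 218 and 216 CPM in SAT Treg cells, against 12.4, 13.5 and 10.6 CPM in spleen Treg cells. Gem had 93.7 and 74.6 CPM in BAT Treg cells and 84.7, 122 and 112 CPM in SAT Treg cells, against 7.87, 9.25 and 8.71 CPM in spleen Treg cells. For both genes every fat library lay several-fold above every spleen library. On the log2 scale, fat exceeded spleen by 4.20 ± 0.26 (SE) for Rgs2 and by 3.56 ± 0.20 for Gem.

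Rgs16, a regulator of Gi and Gq that is induced in activated T cells, had 280 and 225 CPM in BAT Treg cells and 147, 108 and 84.4 CPM in SAT Treg cells, against 62.9, 34.0 and 49.5 CPM in spleen Treg cells. The libraries fell in 3 separate steps, BAT above SAT and SAT above spleen (1.89 ± 0.22 for fat over spleen). Rgs1, which limits chemokine receptor signals in lymphocytes, had 262 and 230 CPM in BAT Treg cells and 270, 193 and 214 CPM in SAT Treg cells, against 173, 125 and 162 CPM in spleen Treg cells. Its fat and spleen libraries did not overlap, with a smaller log2 fold change of 0.72 ± 0.14.

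Rgs10, a small RGS protein that acts on Gi subunits and is abundant in microglia and macrophages, had 92.9 and 133 CPM in BAT Treg cells and 173, 60.2 and 68.2 CPM in SAT Treg cells, against 240, 279 and 252 CPM in spleen Treg cells. All fat libraries lay below the spleen libraries, and the SAT libraries varied most (-1.18 ± 0.28). Rgs3, which acts on Gi and Gq, ran from 53.6 to 74.4 CPM in the 5 fat libraries and from 83.0 to 97.0 CPM in the 3 spleen libraries (-0.33 ± 0.15). Rgs14, a scaffold that joins Gi subunits with Ras and Rap, was level, with 191 to 234 CPM in fat Treg cells and 205 to 224 CPM in spleen Treg cells (0.14 ± 0.10). Of all genes tested in this comparison 12.6% passed the edgeR threshold of an adjusted p under 0.05, 7.29% higher and 5.27% lower in fat, and 5 of the 7 genes were among them, all but Rgs3 and Rgs14. Nothing is read from that count, since the genes may have been chosen by this contrast. Rgs10 left the called genes with no filter on low counts and without BAT Treg replicate 1, BAT Treg replicate 2 or spleen Treg replicate 2.

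Other measures moved with this contrast. The summed level of 20 immediate-early and stress genes was 9020.4 to 9922 CPM in BAT Treg cells and 7639 to 12930.5 CPM in SAT Treg cells, against 1274 to 1374 CPM in spleen Treg cells. Of these 20 genes 19 were tested and 16 were higher in fat. On the list of cAMP response genes, 7 of 10 tested were higher in fat, with sums of 1662 to 2699 CPM in the fat libraries and 434 to 514 CPM in spleen Treg cells. Nr4a1, Nr4a2 and Nr4a3 are on both lists. How far these genes and the 7 regulators share a source was not tested. Of the chemoattractant receptors, whose Gi signals RGS proteins limit, fat Treg cells held more of 10 and less of 2 out of 18 tested. The alpha subunits, the direct targets of RGS proteins, had 3 of 10 higher and 0 lower, and subunits of voltage-gated calcium channels, the targets of Gem, 0 of 5 in either direction. The 10 macrophage markers together reached 8.40 to 30.1 CPM in fat Treg cells and 43.7 to 118 CPM in spleen Treg cells, and 7 adipocyte markers at most 3.62 CPM in any sorted library. The NK cell markers summed to 181 to 264 CPM in fat Treg cells and 22.0 to 46.3 CPM in spleen Treg cells. Of the 6 B cell markers, Ighm held 731 to 1025 CPM in fat Treg cells and 1125 to 1207 CPM in spleen Treg cells, whereas Cd79a held 2.05 to 16.6 CPM in fat Treg cells and 3.15 to 17.0 CPM in spleen Treg cells.

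**Figure D1:**
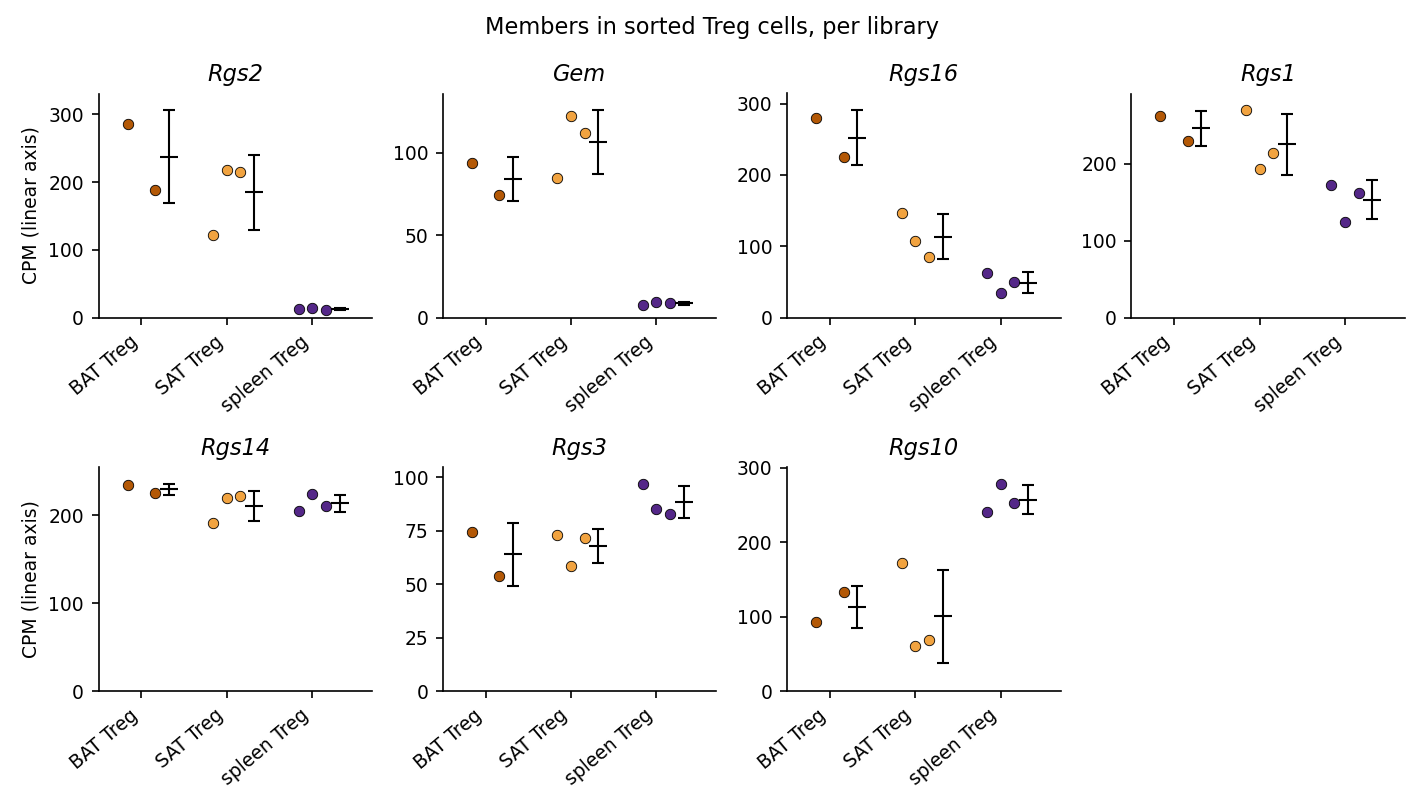
CPM on a linear axis of the 7 genes in each library of sorted Treg cells from BAT (2 libraries), SAT (3) and spleen (3), each point being a library and the bar beside it the mean ± SD. Rgs2 and Gem lie near the axis in spleen (10.6 to 13.5 and 7.87 to 9.25 CPM), Rgs16 forms 3 steps, Rgs14 is level, and Rgs10 is highest in spleen.

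Between the 2 fat depots, Rgs16 was the gene that stood out. It averaged 252 ± 38.8 CPM in BAT Treg cells (SD, n = 2) and 113 ± 31.6 CPM in SAT Treg cells (n = 3), and the libraries did not overlap. The log2 fold change of 1.20 ± 0.24 did not pass adjustment with edgeR's quasi-likelihood test (adjusted p = 0.23), where 0% of 13847 genes passed and 1231 had an unadjusted p under 0.05. DESeq2, which called 90 genes in this comparison, gave Rgs16 an adjusted p of 0.0020, and edgeR with no filter on low counts gave 5.8e-08. The edgeR p-values with no filter and the DESeq2 p-values, here and below, match a normal distribution of the fold change over its SE. They make no allowance for the few libraries and are likely too small. The other 6 genes had log2 fold changes between -0.30 (Gem) and 0.39 (Rgs2), with adjusted p of 0.69 or more.

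Levels can be ranked between genes per kilobase of transcript. Per kilobase, spleen Treg cells held Rgs10 highest at 332 to 386 CPM per kb and Gem lowest at 3.93 to 4.63 CPM per kb. In fat Treg cells the genes lay closer together: Rgs10 reached 83.4 to 239, Rgs2 67.3 to 159, Rgs14 80.9 to 99.3 and Rgs3, the lowest, 13.8 to 19.1 CPM per kb. Whole BAT had another order, with medians over 38 libraries of 73.6 CPM per kb for Rgs2, 12.0 for Rgs3, 6.62 for Rgs10 and 6.60 for Gem, and under 0.5 for Rgs14, Rgs1 and Rgs16. In whole SAT, over 14 libraries, Rgs10 was first at 37.1 and Rgs2 second at 20.2 CPM per kb.

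Rgs1, Rgs14 and Rgs16, which each reached at least 84.4 CPM in every fat Treg library, were scarce in whole fat: no BAT library held more than 9.88 CPM of Rgs1, 7.14 CPM of Rgs14 or 2.98 CPM of Rgs16. Several whole-tissue comparisons left them below the filter on low counts (filterByExpr), and they are then given as counts. Rgs2, Rgs3, Rgs10 and Gem passed the filter in every comparison.

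Removal of Treg cells was examined first in the D4 set. In BAT, Gem and Rgs10 were higher in DTR+ mice, Rgs1 appeared in every DTR+ library, and Rgs2 and Rgs3 did not pass the test. Gem had 28.0, 23.8, 43.9 and 37.9 CPM in DTR+ BAT, against 4.95, 1.45, 10.04 and 5.94 CPM in DTR- BAT. All DTR+ libraries lay above all DTR- libraries, by a log2 fold change of 2.32 ± 0.44 (edgeR adjusted p = 0.0071). Rgs10 had 9.72, 13.5, 8.41 and 11.9 CPM in DTR+ BAT, against 4.65, 4.35, 4.69 and 4.27 CPM in DTR- BAT, again with no overlap (1.02 ± 0.27, adjusted p = 0.014). These 2 of the 4 genes tested passed where 16.1% of 11695 genes did, 8.73% higher and 7.36% lower.

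Rgs1 was below the filter, with 8, 59, 30 and 17 counts in DTR+ BAT and 0, 1, 4 and 0 counts in DTR- BAT. Every DTR+ library exceeded every DTR- library. With no filter edgeR gave a log2 fold change of 4.49 ± 0.69 (adjusted p = 6.3e-09) and DESeq2 4.66 ± 0.91 (adjusted p = 1.0e-05). Both p-values have the limit given above for DESeq2 and for edgeR with no filter. Rgs2 averaged 182 ± 29.0 CPM in DTR+ BAT and 157 ± 81.8 CPM in DTR- BAT (SD, n = 4 each; -0.045 ± 0.45, adjusted p = 0.97). Rgs3 averaged 62.4 ± 3.70 CPM in DTR+ BAT and 47.0 ± 10.6 CPM in DTR- BAT (0.16 ± 0.14, adjusted p = 0.52). Fold changes are relative to the TMM scaling of each comparison, so that the fitted value here lies 0.25 below the log2 ratio of CPM (0.29 for the difference between depots in D4, 0.21 in D3 BAT and its difference between depots, and 0.11 with PC61). Rgs2 changed sign without that scaling (0.21 ± 0.45).

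Markers of other cells differed between the same libraries. The 10 macrophage markers, all detected in both groups, summed to 629 to 1414 CPM in DTR+ BAT and 143 to 343 CPM in DTR- BAT, and 8 of 10 were called higher. T cell markers, 8 of 8 detected in both groups, summed to 13.8 to 41.8 CPM in DTR+ BAT and 2.61 to 4.82 CPM in DTR- BAT. Immediate-early and stress genes summed to 1261 to 2269 CPM in DTR+ BAT and 161 to 799 CPM in DTR- BAT. The part of each in the values of Gem, Rgs10 and Rgs1 was not tested.

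In SAT of the same set 0 of the 7 genes passed, where 0.314% of 12728 genes did. Gem had 12.0, 17.4, 8.77 and 15.1 CPM in DTR+ SAT, against 10.5, 14.4, 8.82 and 13.4 CPM in DTR- SAT (0.19 ± 0.26, adjusted p = 0.90). Rgs10 averaged 33.2 ± 6.32 CPM in DTR+ SAT and 32.7 ± 4.81 CPM in DTR- SAT (0.031 ± 0.17, adjusted p = 0.98). Rgs1 averaged 2.79 ± 1.26 CPM in DTR+ SAT and 4.65 ± 1.91 CPM in DTR- SAT (-0.73 ± 0.48, adjusted p = 0.77), with overlapping libraries. The unadjusted edgeR p was 0.15 or more for all 7 genes, and DESeq2 also called 0. The count was 0 as well without both SAT libraries that stood apart.

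The effects of genotype in BAT and SAT were then compared in 1 model. The BAT effect exceeded the SAT effect by 5.24 ± 0.99 on the log2 scale for Rgs1 (edgeR adjusted p = 0.0061), 2.11 ± 0.51 for Gem (adjusted p = 0.027) and 0.96 ± 0.27 for Rgs10 (adjusted p = 0.047). These were 3 of the 7 genes, where 4.11% of 13502 genes passed (3.06% higher and 1.05% lower). Rgs1, below the filter when BAT was tested alone, passed it here with the SAT libraries in the fit. Its DTR- BAT libraries held 0, 1, 4 and 0 counts, so the size of its difference rests on few counts. Without both SAT libraries that stood apart the values for Rgs1, Gem and Rgs10 were 5.30, 2.12 and 1.01 (adjusted p = 0.0085, 0.035 and 0.046). Leaving out any 1 library kept Rgs1 past the threshold (adjusted p at most 0.018), with values of 4.81 to 6.79, the highest without DTR- BAT replicate 3, which held 4 of the 5 counts of its group. Gem missed the threshold in 7 of 16 such fits (at most 0.057) and Rgs10 in 12 of 16 (at most 0.10). For Gem these were the fits without DTR+ BAT replicate 3 or 4, DTR+ SAT replicate 3, DTR- BAT replicate 1 or 4, or DTR- SAT replicate 2 or 4. Rgs10 stayed past the threshold only without DTR+ BAT replicate 1 or 3, DTR+ SAT replicate 4 or DTR- SAT replicate 3. It also missed the threshold with RLE size factors (0.94, adjusted p = 0.053) and with no filter on low counts (0.99, adjusted p = 0.060).

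In the D3 set the same direction was seen for Gem in BAT without a call. Gem had 42.3, 27.1 and 30.2 CPM in DTR+ BAT, against 1.39, 14.1 and 4.45 CPM in DTR- BAT, so that the groups did not overlap (2.09 ± 0.73, edgeR adjusted p = 0.24). One DTR- library, replicate 2, was higher than the others of its group, and without it the log2 fold change was 3.25 ± 0.38 (adjusted p = 0.00094). Rgs1 had 12, 18 and 8 counts in DTR+ BAT and 0, 5 and 2 counts in DTR- BAT and was below the filter. Rgs10, which was called in the D4 set, had 4.33, 4.95 and 4.86 CPM in DTR+ BAT and 3.65, 4.00 and 6.54 CPM in DTR- BAT, overlapping (-0.20 ± 0.36, adjusted p = 0.82). In all, 0 of the 4 genes tested passed in D3 BAT with edgeR, where 3.52% of 11666 genes did, and Gem was the 1 with an unadjusted p under 0.05. DESeq2 called 0 of the 7. Macrophage markers summed to 347 to 399 CPM in DTR+ BAT and 130 to 251 CPM in DTR- BAT, and immediate-early and stress genes to 1799 to 1934 CPM in DTR+ BAT and 602 to 1049 CPM in DTR- BAT.

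In D3 SAT 0 of the 7 passed with edgeR or DESeq2, as did 0% of 12596 genes with edgeR (629 had an unadjusted p under 0.05). Rgs3 had 45.2, 26.5 and 26.8 CPM in DTR+ SAT, against 20.8, 18.4 and 21.4 CPM in DTR- SAT. Its libraries did not overlap (0.69 ± 0.22, edgeR adjusted p = 0.86), and it was the 1 gene of the 7 with an unadjusted p under 0.05. For the difference between the BAT and SAT effects 0 of the 7 passed by either tool, where 0.0675% of 13325 genes did, and 2 (Rgs1 and Rgs3) had an unadjusted p under 0.05. That of Gem was 1.74 ± 0.79 (adjusted p = 0.46). Whether the effects in the D3 and D4 sets differ was not tested.

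**Figure D2:**
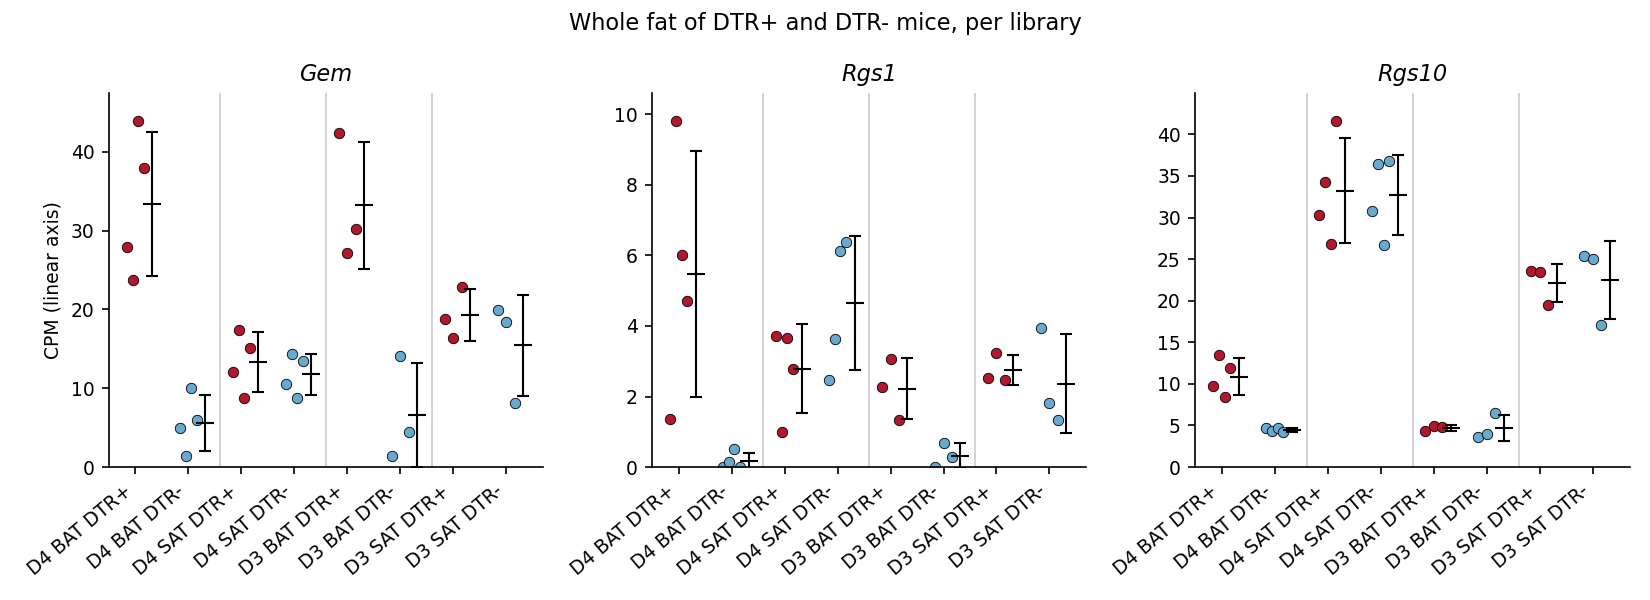
CPM (linear axis) of Gem, Rgs1 and Rgs10 in whole BAT and SAT of DTR+ and DTR- mice of the D4 set (4 libraries each) and the D3 set (3 each), each point being a library and the bar beside it the mean ± SD, drawn from 0 upward. For Gem every DTR+ BAT library lies above every DTR- BAT library in both sets (33.4 ± 9.17 against 5.59 ± 3.53 CPM in D4), and the SAT libraries overlap. Rgs10 separates the genotypes in D4 BAT (10.9 ± 2.24 against 4.49 ± 0.21 CPM) and overlaps in D3 BAT.

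The depots themselves differed in most of these genes, as did 50.9% of 12310 genes in the D4 set (25.9% higher and 25% lower in BAT) and 45.9% of 12387 in the D3 set (23% higher and 22.9% lower). In DTR- mice, 5 of 6 genes tested passed in D4 and 4 of 5 in D3. Rgs2 averaged 157 ± 81.8 CPM in D4 BAT against 31.7 ± 4.23 CPM in D4 SAT (2.79 ± 0.46, edgeR adjusted p = 0.0017) and 158 ± 67.1 CPM in D3 BAT against 45.5 ± 11.8 CPM in D3 SAT (2.25 ± 0.30, adjusted p = 0.00043). Rgs3 was also higher in BAT (0.91 ± 0.23 in D4 and 1.81 ± 0.17 in D3). Its D4 call was lost on library totals with no scaling factor (0.43 ± 0.24, adjusted p = 0.13), the fitted values lying 0.48 above the log2 ratio of CPM in D4 and 0.47 above it in D3.

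Rgs10 ran the other way, with 4.49 ± 0.21 CPM in D4 BAT against 32.7 ± 4.81 CPM in D4 SAT (-2.38 ± 0.20, adjusted p = 1.7e-07) and 4.73 ± 1.58 CPM in D3 BAT against 22.5 ± 4.69 CPM in D3 SAT (-1.77 ± 0.28, adjusted p = 0.00019). Rgs14 was lower in BAT too (-2.23 ± 0.40 in D4 and -2.72 ± 0.79 in D3), although its D3 call was lost without the DTR- SAT library of replicate 1 (adjusted p = 0.068) and its D3 value was -4.21 without the DTR- BAT library of replicate 2. Rgs1 was lower in D4 BAT (-4.07 ± 0.73, adjusted p = 0.00030), with 5 counts over 4 BAT libraries and 113 over 4 SAT libraries. Without BAT replicate 3, which held 4 of those 5 counts, it was -5.61. In D4, Rgs1, Rgs2, Rgs3, Rgs10 and Rgs14 kept their calls without any 1 library, SAT replicate 3 included (edgeR adjusted p at most 0.023). Gem did not pass in either set (-0.60 ± 0.42 and -0.72 ± 0.70), but passed in D4 with no scaling factor (-1.06 ± 0.42, adjusted p = 0.045) or without the DTR- BAT library of replicate 3 (-1.08, adjusted p = 0.043), and in D3 without the DTR- BAT library of replicate 2 (-1.90, adjusted p = 0.011). Rgs16 was below the filter in both sets and Rgs1 in D3. With no filter edgeR called Rgs16 lower in D4 BAT (-2.47 ± 0.76, adjusted p = 0.0061) and Rgs1 lower in D3 BAT (-2.31 ± 0.89, adjusted p = 0.046). DESeq2 called Rgs16 in D4 (-2.51, adjusted p = 0.013) but not Rgs1 in D3 (-2.38, adjusted p = 0.073).
In the same libraries macrophage markers summed to 143 to 343 CPM in D4 BAT and 1176 to 2906 CPM in D4 SAT. Their part in the depot differences was not tested. Of the B cell markers Ighm held 11.2 to 20.9 CPM in D4 BAT and 315 to 584 CPM in D4 SAT. Cd79a held 0.580 to 2.40 CPM in D4 BAT and, in D4 SAT, 75.3 CPM in replicate 3 but at most 1.80 CPM in the other libraries.

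The CL experiment addressed beta-adrenergic stimulation of BAT. In DTR- BAT, CL raised Gem and lowered Rgs2, Rgs3, Rgs10 and Rgs1, 5 of the 7 genes, where 28.1% of 12048 genes passed (16.3% higher and 11.8% lower). Gem had 67.5, 51.0 and 38.4 CPM with CL, against 7.99, 2.75 and 5.88 CPM with PBS. Every CL library lay above every PBS library (3.28 ± 0.32, edgeR adjusted p = 9.7e-06). Rgs2 had 0.333, 1.58 and 7.90 CPM with CL, against 74.8, 51.7 and 138 CPM with PBS. The log2 fold change was -4.47 ± 0.74 (adjusted p = 0.0023), and the 3 CL libraries differed widely among themselves. Without CL replicate 3, the highest of them, it was -6.29 (adjusted p = 4.0e-05).

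Rgs3 had 12.6, 8.47 and 10.9 CPM with CL, against 47.4, 43.9 and 43.9 CPM with PBS, tight within each group and far apart (-2.02 ± 0.27, adjusted p = 0.00011). Rgs10 had 0.998, 3.35 and 1.66 CPM with CL, against 6.31, 4.03 and 9.27 CPM with PBS (-1.63 ± 0.54, adjusted p = 0.037). Its groups did not overlap, but the call was lost in 5 of 9 fits that left out 1 library, namely DTR- CL replicate 1 (adjusted p = 0.12) or 3 (0.11), PBS replicate 1 (0.061) or 3 (0.15), or DTR+ CL replicate 3 (0.051). Rgs1 had 0 counts in all 3 CL libraries and 40 counts over the 3 PBS libraries. Against a floor of 3 counts over the CL group it was at least 12.5-fold lower (adjusted p = 0.0061). The fit also held the DTR+ CL libraries, and Rgs1 cleared its low-count filter with the help of their counts. No support is drawn from that p-value.

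Other lists moved in these libraries. Immediate-early and stress genes summed to 1429 to 1648 CPM with CL and 139 to 588 CPM with PBS, with 10 of 18 tested higher. Of the cAMP response genes 8 of 12 tested were higher and 0 lower, with sums of 3809 to 4409.7 CPM with CL and 429.9 to 875 CPM with PBS. This list shares Nr4a1, Nr4a2 and Nr4a3 with the immediate-early and stress genes. Of the G protein alpha subunits 3 of 10 tested were higher and 1 lower, of the G protein-coupled receptors known in fat 3 of 11 were higher and 4 lower, and of the chemoattractant receptors 0 of 10 were higher and 4 lower. Macrophage markers summed to 164 to 181 CPM with CL and 263 to 676 CPM with PBS, 5 of 10 called lower. T cell markers summed to 1.33 to 6.31 CPM with CL and 4.87 to 85.7 CPM with PBS, the highest being PBS replicate 3. Without that library Rgs2 had a log2 fold change of -3.92 and Rgs1, with 12 PBS counts left, was at least 7.01-fold lower, and both still passed (edgeR adjusted p = 0.0017 and 0.018).

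With CL in both groups, DTR+ BAT was next compared with DTR- BAT. The DTR- CL libraries were those already set against PBS, so low values in them enter both comparisons with opposite signs. Rgs1 and Rgs10 were higher in DTR+ mice, 2 of the 7 genes, where 7.72% of 12048 genes passed (4.51% higher and 3.21% lower). Rgs1 had 4.86, 4.10 and 6.82 CPM in DTR+ BAT, a total of 108 counts, against 0 counts in DTR- BAT, which makes it at least 31.3-fold higher by the same floor (edgeR adjusted p = 0.0066). These DTR+ libraries, where Rgs1 was highest, helped it past the low-count filter of this fit. Its p-value is therefore no independent support. Rgs10 had 6.62, 11.4 and 13.0 CPM in DTR+ BAT, against 0.998, 3.35 and 1.66 CPM in DTR- BAT (2.28 ± 0.54, adjusted p = 0.023). It missed the threshold without DTR- CL replicate 1 (adjusted p = 0.072), DTR- CL replicate 3 (0.069) or DTR+ CL replicate 3 (0.096). All 10 macrophage markers were called higher, with sums of 935 to 1082 CPM in DTR+ BAT and 164 to 181 CPM in DTR- BAT, and their part in the values of Rgs1 and Rgs10 was not tested.

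Gem had 87.8, 111 and 80.1 CPM in DTR+ BAT with CL, against 67.5, 51.0 and 38.4 CPM in DTR- BAT with CL. The groups did not overlap, yet the change of 0.79 ± 0.28 missed the threshold (adjusted p = 0.099, and 0.031 with no filter on low counts). Rgs2 had 9.72, 11.4 and 17.1 CPM in DTR+ BAT, each above the highest DTR- library of 7.90 CPM (1.67 ± 0.71, adjusted p = 0.18). It passed without DTR- CL replicate 3 (3.49 ± 0.65, adjusted p = 0.014) and with a replicate block (2.10 ± 0.44, adjusted p = 0.016). Rgs3 averaged 16.7 ± 2.64 CPM in DTR+ BAT and 10.7 ± 2.09 CPM in DTR- BAT (0.62 ± 0.27, adjusted p = 0.16). Rgs14 averaged 3.68 ± 3.24 CPM in DTR+ BAT and 0.270 ± 0.234 CPM in DTR- BAT (3.42 ± 1.11, adjusted p = 0.074; 0.033 with DESeq2 and 0.037 with no filter).

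**Figure D3:**
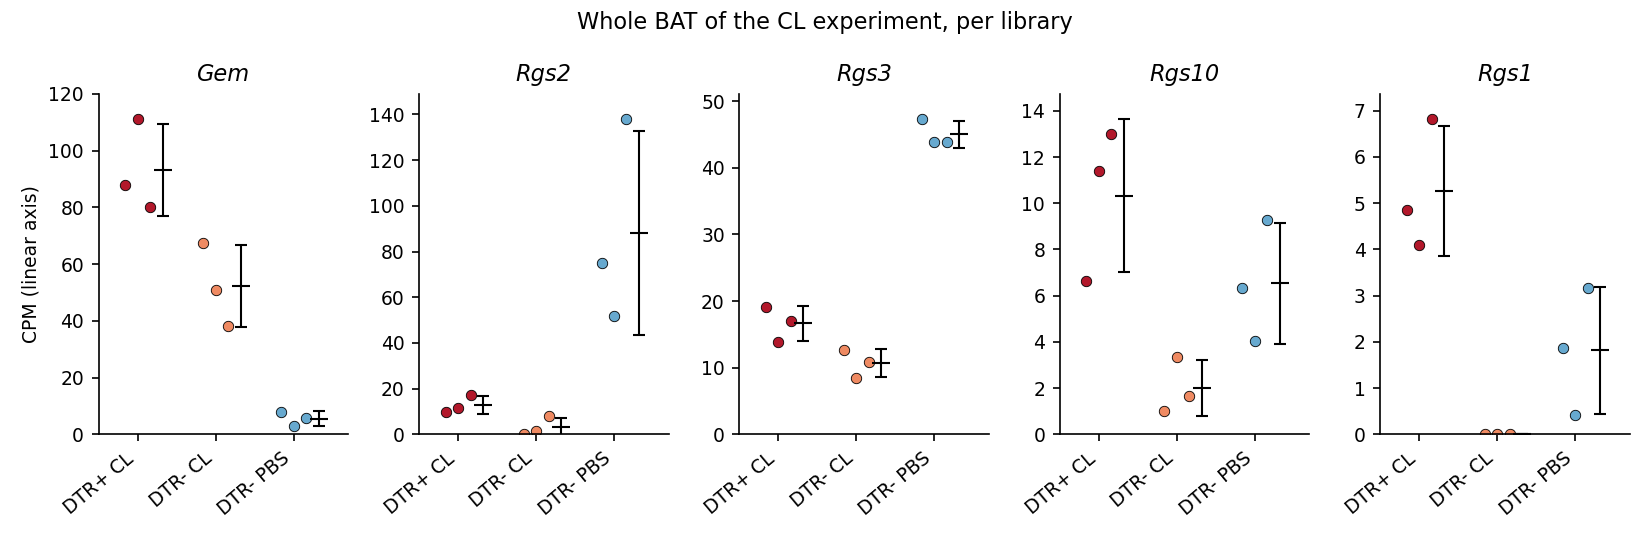
CPM on a linear axis of 5 genes in whole BAT of the CL experiment (DTR+ with CL, DTR- with CL, DTR- with PBS), 3 libraries each, with points for libraries and bars for the mean ± SD drawn from 0 upward. Gem is high with CL in both genotypes, Rgs2 and Rgs3 are low with CL in both, and Rgs10 and Rgs1 are lowest in DTR- mice given CL, where Rgs1 has 0 counts.

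PC61, an anti-CD25 antibody used to deplete or block cells bearing that receptor chain, was compared with isotype in wild-type BAT. Rgs2 had 222, 104 and 199 CPM with PC61, against 37.6, 51.3 and 75.9 CPM with isotype. Rgs3 had 69.3, 36.9 and 83.4 CPM with PC61, against 24.2, 35.8 and 36.9 CPM with isotype. The groups did not overlap for either gene, Rgs3 by a margin of less than 0.1 CPM. Neither passed (Rgs2 1.56 ± 0.39, edgeR adjusted p = 0.26; Rgs3 0.86 ± 0.29, adjusted p = 0.30), and 0 of the 4 genes tested did, where 0.651% of 11513 genes passed. Unadjusted, 2 of the 4 had a p under 0.05 (0.010 and 0.016). DESeq2 called Rgs2 alone (adjusted p = 0.018), edgeR with no filter called Rgs3 alone (adjusted p = 0.00021), and without PC61 replicate 2 both were called (1.82 and 1.13, adjusted p = 0.0090 and 0.022).

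The antibody against interferon gamma was given to DTR+ mice and compared with isotype. Rgs1 had 3.54, 2.61 and 1.99 CPM with the antibody, against 9.88, 7.65 and 5.67 CPM with isotype, without overlap. The difference of -1.46 ± 0.43 did not pass adjustment (edgeR adjusted p = 0.24). Of the 6 genes tested 0 passed with edgeR or DESeq2, where 0.541% of 12017 genes did with edgeR, and Rgs1 was the 1 with an unadjusted p under 0.05. Macrophage markers summed to 656 to 975 CPM with the antibody and 714 to 1653 CPM with isotype. Gem averaged 16.2 ± 6.56 CPM with the antibody and 21.0 ± 4.28 CPM with isotype (-0.32 ± 0.29, adjusted p = 0.85).

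BAT of mice kept at 4 degrees was set against the DTR- BAT given PBS. The labels give DT to the PBS group and not to the cold group, so the temperature and the toxin cannot be told apart. Rgs3 had 19.5, 25.5 and 24.2 CPM in the cold, against 47.4, 43.9 and 43.9 CPM with PBS. It was lower in every cold library (-1.02 ± 0.19, edgeR adjusted p = 0.0077) and was 1 of 5 genes tested to pass, where 8.66% of 12329 genes did (4.86% higher and 3.8% lower). Against the wild-type isotype libraries, another control, the change was -0.60 ± 0.21 (adjusted p = 0.061). Rgs2 had 12.0, 48.7 and 55.4 CPM in the cold, against 74.8, 51.7 and 138 CPM with PBS, overlapping (-1.29 ± 0.62, adjusted p = 0.28). Gem, which rose with CL, had 7.86, 7.84 and 6.11 CPM in the cold, against 7.99, 2.75 and 5.88 CPM with PBS (0.35 ± 0.44, adjusted p = 0.68).

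**Figure D4:**
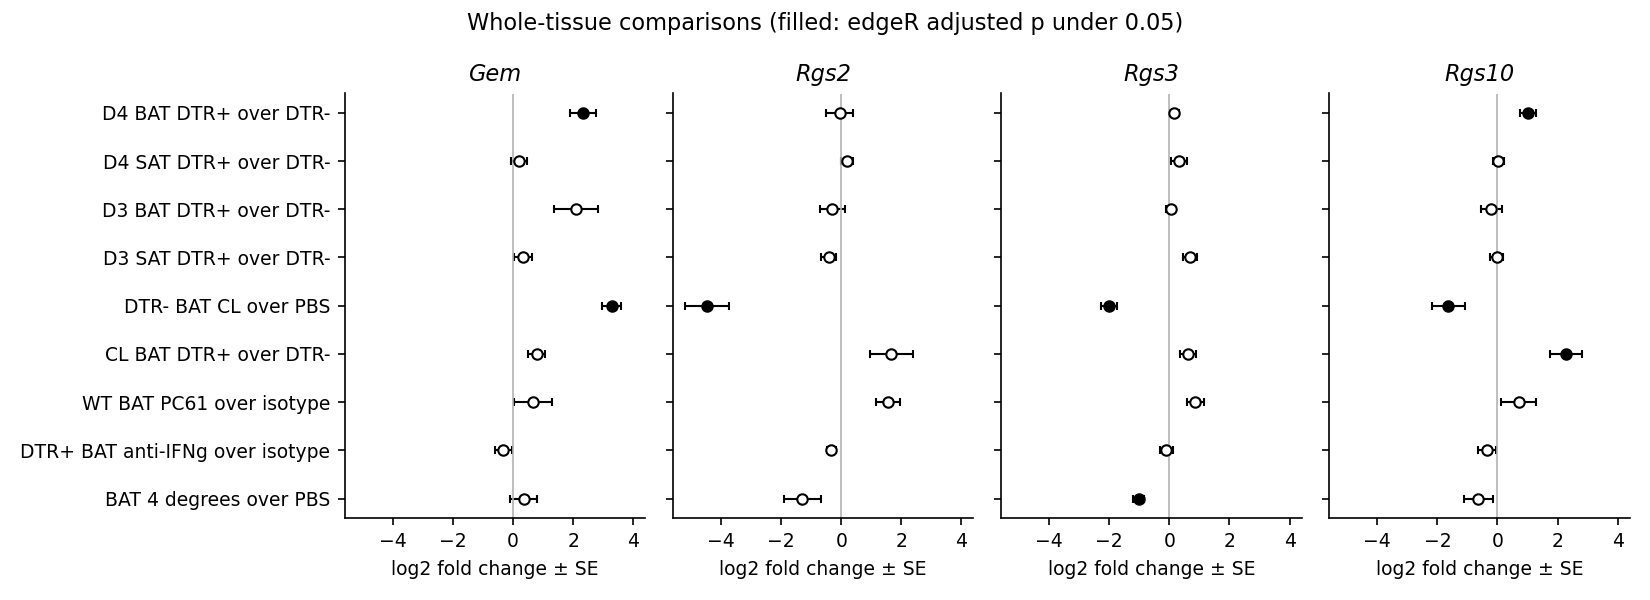
Log2 fold change ± SE (horizontal axis) of Gem, Rgs2, Rgs3 and Rgs10 in 9 whole-tissue comparisons (rows), with filled points where edgeR's adjusted p was under 0.05. Gem is filled on the right in D4 BAT and with CL over PBS, Rgs2 with CL over PBS at -4.47, Rgs3 on the left with CL over PBS and in the cold, and Rgs10 in D4 BAT and in both CL comparisons with opposite signs. Both CL comparisons use the same DTR- CL libraries.

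Across the 38 whole-BAT libraries Rgs2 and Rgs3 followed each other. Pearson's r of their log2 CPM was 0.91, Rgs3 being the gene most like Rgs2 among 9156 genes with a mean of at least 5 CPM. The libraries share groups and treatments: r was 0.82 over the 32 libraries without CL and 0.27 after each group's mean was removed. Genes most like Rgs3 were Fam13a (0.94, and 0.63 within groups), Tcta (0.93) and Rgs2. For Gem they were Atf3 (0.91, and 0.53 within groups), Nr4a3 (0.89) and Irs2 (0.89), the first a stress-induced transcription factor and the second an immediate-early nuclear receptor.

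Among the genes closest to Rgs1 were Cyba (0.92, and 0.63 within groups) and Laptm5 (0.92), and the closest to Rgs10 were Cybb (0.90, and 0.59 within groups), Il1rn (0.89) and Lyz2 (0.88). Cyba and Cybb encode the subunits of the phagocyte NADPH oxidase cytochrome. Rgs1 and Rgs10 had an r of 0.82 with each other, and 0.42 within groups. The closest to Rgs14 was Tnfrsf1b (0.76), and Rgs16 averaged under 1 CPM and was not ranked. In Treg cells, over 3 group means from 8 libraries and 9393 genes, the mean log2 differences of BAT and SAT from spleen were closest to those of Gem in Mmp25, Pparg and Il10, and to those of Rgs16 in Slc25a33, Ckap2 and Ccnb2.

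**Figure D5:**
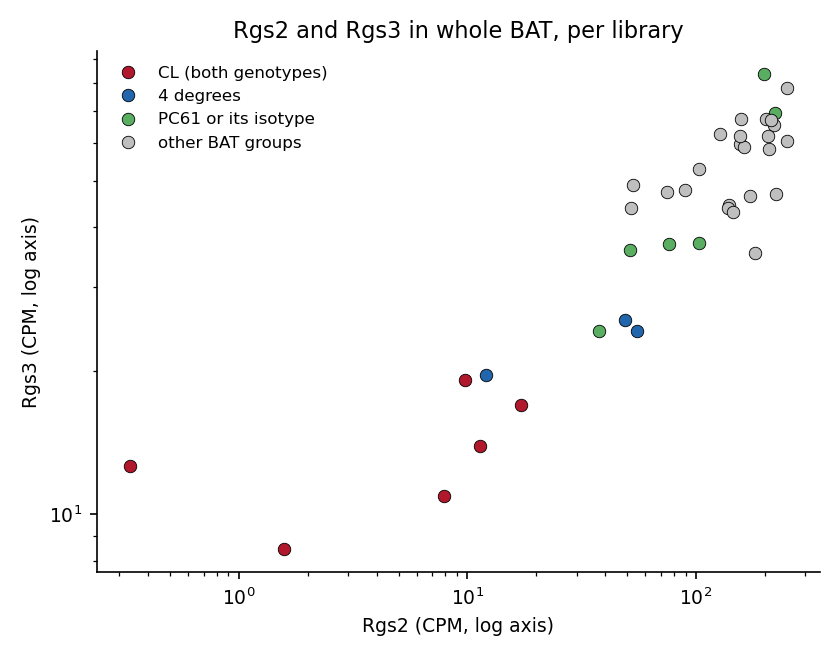
CPM of Rgs2 (horizontal) and Rgs3 (vertical), both on log axes, in the 38 whole-BAT libraries, each point being a library. The 6 CL libraries lie at the lower left, with Rgs2 at 17.1 CPM or less and Rgs3 at 19.1 CPM or less, and the 3 cold libraries lie between them and most of the rest.

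Over the 19 groups, neighbours in the order of mean level mostly overlapped: 14 to 16 of 18 neighbouring pairs for each gene. Rgs1, Rgs14 and Rgs16 were highest in the 3 Treg groups, and every library of sorted Treg cells exceeded every whole-tissue library. Rgs10 was highest in spleen Treg cells (257 ± 19.7 CPM), then BAT Treg cells (113 ± 28.5 CPM) and SAT Treg cells (100 ± 62.6 CPM), the last 2 not separable. Rgs2 had no such split: BAT Treg cells (238 ± 68.8 CPM) overlapped whole BAT of DTR+ mice given isotype (214 ± 39.4 CPM), and spleen Treg cells (12.2 ± 1.44 CPM) lay near DTR+ BAT given CL (12.7 ± 3.89 CPM). Gem was likewise shared, with 106 ± 19.5 CPM in SAT Treg cells and 93.0 ± 16.2 CPM in DTR+ BAT given CL.

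Among the 15 other RGS genes and 3 other RGK genes of the lists, few were as abundant in Treg cells. Rgs19, an RGS protein that binds Gi subunits, had 116 to 162 CPM in fat Treg cells and 169 to 193 CPM in spleen Treg cells, and Rrad, an RGK relative of Gem, 54.0 to 84.6 CPM in fat Treg cells and 50.0 to 55.0 CPM in spleen Treg cells. For fat over spleen Treg cells, Rgs8, Rgs9, Rgs11, Rgs12, Rgs19 and Rrad were tested. None passed (edgeR adjusted p of 0.12 or more), where 12.6% of 13847 genes did. In whole tissue no other RGS or RGK gene passed for genotype, CL, PC61, anti-interferon gamma or cold. Depots were the exception: in DTR- mice Rgs5, a gene of pericytes, was higher in BAT than in SAT (1.51 ± 0.15 in D4 and 1.35 ± 0.17 in D3), as was Rgs7 (1.63 ± 0.33 and 1.88 ± 0.29). Rgs18, expressed in platelets and myeloid cells, was lower in BAT (-4.61 ± 0.77 and -4.62 ± 0.67), and so were Rrad (-2.04 ± 0.43 and -3.24 ± 0.63) and Rgs19 (-0.69 ± 0.16 and -0.84 ± 0.17). Rgs12 was lower in D4 BAT (-1.34 ± 0.38).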

How the data were processed

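The authors deposited 1 table of raw read counts per gene for 60 libraries, made by Smart-seq2 from sorted cells or from 2 ng of whole-tissue RNA, per the labels' protocols. Reads were processed with STAR 2.7.3a and featureCounts on mm10, per the submitters' processing notes. The strand setting is not given in the sources used here. Library totals ran from 3007241 to 9673342 counts. All 55011 rows were used as deposited, and CPM are counts over the library total.

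Counts were tested in edgeR 4.0.16 (R 4.3.3) with filterByExpr, TMM scaling and the robust quasi-likelihood F test, in 15 comparisons, with Benjamini-Hochberg adjustment over all genes of a comparison and a threshold of 0.05. Standard errors were derived by dividing each log2 fold change's size by the root of its F statistic. The DESeq2 p-values, and the edgeR p-values with no filter on low counts, match a normal distribution of fold change over SE. They are therefore likely too small. The script was tested on simulated data. Alternatives were DESeq2 1.42.0, RLE size factors, no filter on low counts, a replicate block, other libraries in the fit, other controls for the cold, each library left out, and, chosen after seeing the data, library totals with no scaling factor and leaving out both SAT libraries that stand apart. The members and lists were chosen with earlier results of these data known. The genes named as most alike are the 3 nearest to each member among genes averaging at least 5 CPM. Levels per kilobase use the median length of GENCODE M21 coding transcripts, and promoters are from RefSeq (GRCm38.p6), which matched 4 of the 7 genes.

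Replicate pairs were checked for copies over genes with 20 or more counts: chi-square per degree of freedom was 7.02 or more in all 67 pairs, so none was counted as 1 sample. Floors for counts of 0 are 3 counts over the group and cover counting error only.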

Additional observations from a re-analysis of the deposited data

Results flagged for a closer look

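In the D4 set, a test of the difference between the depots in the effect of genotype called 3 of the 7 genes. Of all 13502 genes tested 4.11% passed, and nothing is read from the count of 3. The BAT effect (DTR+ over DTR-) exceeded the SAT effect by 5.24 on the log2 scale for Rgs1, by 2.11 for Gem and by 0.96 for Rgs10, with edgeR adjusted p of 0.0061, 0.027 and 0.047. The call of Rgs10 was lost in 14 of 22 alternatives and that of Gem in 7 of 22, while Rgs1 passed in all 22. However, the DTR- BAT libraries held only 0, 1, 4 and 0 counts of Rgs1, which was below the filter when BAT was tested alone. Rgs1 was higher in 4 of 4 DTR+ BAT libraries than in any DTR- BAT library, while its SAT libraries overlapped, and the same held for Gem and Rgs10. The D3 set gave differences of 2.24 ± 0.97 for Rgs1, 1.74 ± 0.79 for Gem and -0.19 ± 0.36 for Rgs10, and 0 of these passed (adjusted p = 0.41, 0.46 and 0.90). Macrophage marker sums in D4 were 629 to 1414 CPM in DTR+ BAT and 143 to 343 CPM in DTR- BAT, against 1694 to 2981 CPM in DTR+ SAT and 1176 to 2906 CPM in DTR- SAT. Their part in these values was not tested.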

How the results depend on the processing

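Of 1270 alternative values, 1172 kept their direction and side of the threshold, 36 of 394 alternatives of a called gene lost the call and 0 reversed it. Counts of the 7 genes called moved by over 1.5 times as follows, and the cause was not tested. The calls over all genes moved as well and are given beside them. Treg BAT over SAT had 1 with no filter and 1 with DESeq2, against 0 (all genes: 136 and 90 of 38545, against 0 of 13847). PC61 had 1 with no filter, 1 with DESeq2 and 0 to 2 when 1 library was left out, against 0 (all genes: 347 and 212 of 24228, and 11 to 100, against 75 of 11513). DTR+ over DTR- with CL had 4 with no filter and 1 to 2 when 1 library was left out, against 2 (all genes: 1552 of 25257, and 310 to 1354, against 930 of 12048). The cold comparison had 0 with the wild-type isotype control, against 1 (all genes: 2828 of 11875, against 1068 of 12329). Leaving out 1 library gave 1 to 3 in the D4 BAT minus SAT effect, against 3 (all genes: 309 to 679, against 555 of 13502). In D3 BAT it gave 0 to 1, against 0 (all genes: 118 to 391, against 411 of 11666). Smaller moves were 5 to 7 between depots in D4 and 3 to 6 in D3, against 5 and 4 (all genes: 5826 to 7279 and 4935 to 6823, against 6268 and 5688). Others were 4 to 5 in Treg fat over spleen, 4 to 5 with CL over PBS and 2 to 3 in D4 BAT, against 5, 5 and 2. Over all genes these had 914 to 2176, 2460 to 3769 and 1361 to 2519, against 1739, 3390 and 1882. Nothing about the 7 genes is read from these moves.

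Reversals were limited to log2 fold changes that had not passed. Leaving out 1 library gave, in Treg BAT over SAT, -0.31 to 0.16 for Rgs3 and -0.072 to 0.84 for Rgs10. In D4 it gave -0.37 to 0.23 for Rgs2 in BAT, and -0.074 to 0.11 for Rgs10, -0.25 to 0.023 for Rgs14 and -0.55 to 0.44 for Rgs16 in SAT, and -0.53 to 0.061 for the Rgs2 BAT minus SAT effect. In D3 it gave -0.057 to 0.14 for Rgs3 and -0.32 to 0.057 for Rgs10 in BAT. D3 SAT ranged from -0.083 to 0.77 for Rgs1, -0.18 to 0.051 for Rgs10 and -0.84 to 0.096 for Rgs14. The D3 BAT minus SAT effect ranged from -0.22 to 0.40 for Rgs2 and -0.31 to 0.070 for Rgs10. The others were Rgs16 with CL over PBS (-2.16 to 1.14), Rgs3 with anti-interferon gamma (-0.31 to 0.097) and Rgs1 in the cold (-0.93 to 0.37).
Library totals with no scaling factor gave 0.21 for Rgs2 in D4 BAT, 0.024 for Rgs2 and 0.097 for Rgs3 in the D4 BAT minus SAT effect, and 0.0054 for Rgs10 in that of D3. Rgs14 in D4 SAT was 0.069 without both SAT libraries that stand apart. Rgs16 with CL over PBS was 0.030 with DESeq2. In the cold, Gem was -0.070 against D3 DTR- BAT and Rgs10 was 1.06 against the wild-type isotype libraries.

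Replicate numbers were not taken to pair the samples: in every comparison with 3 or more pairs, at least 1 pair of same-numbered libraries had a correlation of deviations of 0.1 or less. This rule cannot exclude pairing. In D4 DTR- BAT over SAT same-numbered pairs had 0.038 to 0.12 (median 0.082, against -0.050 for other numbers). In D3 the medians were -0.096 and 0.048. The replicate block turned Rgs2 in D4 BAT to 0.12 and called Rgs2 in DTR+ over DTR- with CL (2.10, edgeR adjusted p = 0.016), the only call of a member it changed. For anti-interferon gamma, No paired analysis was possible because the groups share 1 replicate number. Depth limits Rgs1, Rgs14 and Rgs16 in whole BAT, where many libraries held under 10 counts.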
